A study of Mus musculus with 20 samples.

Results

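Krüppel-like factors (KLFs) are zinc finger transcription factors, and 10 of their genes, known from work on axon growth, were followed here in dorsal root ganglia of the mouse, where the cell bodies of sensory neurons lie. The members Klf2, Klf4, Klf5, Klf6, Klf7, Klf9, Klf10, Klf11, Klf13 and Klf15 were taken by name from the count table, whose Ensembl identifiers were matched to mouse symbols, and made up 10 of its 78258 genes. All 10 passed the filter on low counts, which left 28564 genes for testing.

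The 20 libraries came from 10 male mice, with 1 library per mouse from lumbar levels 4 to 6 on the side of a sciatic nerve transection (ipsilateral) and 1 from the other side (contralateral), which gave 4 groups of 5. Conditional knockout (cKO) mice, labelled H61, H64, H95, H99 and H100, were Ahr fl/fl with Thy1CRE-ERT2/EYFP, a tamoxifen-activated Cre under the neuronal Thy1 promoter together with a yellow fluorescent protein. Control mice, labelled H62, H63, H65, H96 and H97, were Ahr f/f or f/+; the labels name no Cre or EYFP in them. Ahr encodes the aryl hydrocarbon receptor, a transcription factor activated by small ligands. Every mouse, controls included, had tamoxifen at 17 weeks of age, given i.p. at 100 mg/kg on 5 days, was lesioned 4 weeks later and was sampled 1 day after the lesion. The contralateral ganglia therefore came from lesioned mice and are no uninjured baseline, and the Cre acts only in cells with Thy1 promoter activity while a library holds every cell of the ganglion. One label field names a spinal cord injury where the protocol describes the nerve lesion; the protocol was followed. The library titles call the control mice wildtype. A cKO contralateral title reads H6 where the library name reads H61, and the library name was used.

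KLF proteins share 3 zinc fingers near the C-terminus that bind GC-rich and CACCC sequences, while their other parts differ and recruit either activators or repressors. In the nervous system they are known in opposing roles: Klf6 and Klf7 favour neurite growth, whereas Klf4 and Klf9 restrain it and rise as neurons mature. The other members are best known elsewhere, such as Klf2 in endothelium, Klf5 in proliferating epithelium and smooth muscle, Klf10 and Klf11 downstream of TGF-beta, Klf13 in lymphocytes and heart, and Klf15 in metabolism.

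Libraries held 76.2 to 118.5 M counts (M, mega), and the members had 583 to 63091 counts in a library, so that the spread between mice rather than counting set their precision. All 14 markers of sensory neurons were detected, with a summed level of 10607 to 12682 CPM (counts scaled to library size) in the 20 libraries. Ahr itself stood at 24.2 ± 2.10 CPM (SD, n = 5; range 21.3 to 27.2) in control contralateral and 20.4 ± 0.536 CPM (19.5 to 20.99) in cKO contralateral ganglia. On the lesioned side it was 34.4 ± 2.86 CPM (30.2 to 38.1) in control and 31.9 ± 2.94 CPM (28.9 to 36.8) in cKO mice, so the ranges overlapped there. Ahr was not called lower in cKO on either side, with a log2 fold change of -0.25 contralaterally (SE 0.0661, adjusted p = 0.103). These counts cover the whole gene, and reads within the floxed part were not analysed here. Thy1, whose promoter drives the Cre, stood at 641 ± 34.1 CPM in control and 1093 ± 61.9 CPM in cKO contralateral ganglia (SD, n = 5). Ipsilaterally it was 677 ± 16.3 CPM in control and 1051 ± 76.7 CPM in cKO mice. The Thy1 ranges did not overlap between genotypes on either side, and the source of this difference was not tested. In such bulk libraries fewer cells of a type and less RNA per cell cannot be told apart.

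The sequences before the start sites of Klf6, Klf7, Klf9 and Klf4 are shown because these are the members with the best known roles in axon growth, and the first 3 of them rose after the lesion. Each is the 250 bases before the annotated start in RefSeq (build GRCm38.p6), 5′ to 3′ on the gene's strand. Capitals mark matches, on either strand, to AP-1 (TGANTCA), CRE (TGACGTCA), the XRE core (TNGCGTG, bound by the aryl hydrocarbon receptor), the E-box (CACGTG), the GC box (GGGCGG) and the CACCC box (CACCC); matches that overlap form 1 run of capitals.
Klf6 (chr13:5861239-5861488, plus strand): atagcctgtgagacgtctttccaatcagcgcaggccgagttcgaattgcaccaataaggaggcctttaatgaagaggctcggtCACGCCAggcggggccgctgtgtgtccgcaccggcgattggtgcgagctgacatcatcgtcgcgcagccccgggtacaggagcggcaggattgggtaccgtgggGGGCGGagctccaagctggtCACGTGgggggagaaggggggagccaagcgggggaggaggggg
Klf7 (chr1:64121390-64121639, minus strand): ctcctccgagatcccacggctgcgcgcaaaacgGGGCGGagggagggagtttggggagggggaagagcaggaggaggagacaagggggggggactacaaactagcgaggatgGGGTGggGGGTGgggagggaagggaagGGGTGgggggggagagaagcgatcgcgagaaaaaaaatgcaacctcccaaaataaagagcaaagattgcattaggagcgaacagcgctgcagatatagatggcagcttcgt
Klf9 (chr19:23140976-23141225, plus strand): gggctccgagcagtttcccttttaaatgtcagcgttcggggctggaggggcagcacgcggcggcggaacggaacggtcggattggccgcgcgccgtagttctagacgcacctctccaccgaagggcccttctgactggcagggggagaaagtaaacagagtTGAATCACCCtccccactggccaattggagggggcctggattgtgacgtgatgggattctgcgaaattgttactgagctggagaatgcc
Klf4 (chr4:55532476-55532725, minus strand): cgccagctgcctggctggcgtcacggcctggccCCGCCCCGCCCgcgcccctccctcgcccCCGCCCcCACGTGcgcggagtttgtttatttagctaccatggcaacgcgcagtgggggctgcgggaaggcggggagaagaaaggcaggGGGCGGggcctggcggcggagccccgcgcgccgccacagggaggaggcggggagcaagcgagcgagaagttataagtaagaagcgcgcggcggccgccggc

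RefSeq promoters were found for 8 of the 10 members, the exceptions being Klf5 and Klf10. Motifs were counted over these 250 bases and the first 50 after the start, as in all 32851 promoters of the table. The GC box was in 7 of the 8 member promoters, against 35.7% of all promoters, and was missing from Klf9. The E-box was in 4 of 8 (Klf4, Klf6, Klf11 and Klf15), against 7.15% of all promoters. The XRE core was in Klf6 alone among the 8, at position -167 from the start, against 5.07% of all promoters. AP-1 was in Klf9 alone, at position -89 as TGAATCA, which shares its last bases with a CACCC box, against 7.81% of all. CRE was in none of the 8, against 1.79% of all; its shorter core TGACG was in 5 of 8, against 20.8% of all promoters. The CACCC box was in 5 of 8, against 57.5%. Member promoters held 58.3% to 77.7% G and C, above the median of 52.7% over all promoters, so GC-rich motifs start from a higher base rate in them. Such a match describes the letters only, and no match says only that these letters are not in this window.

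Per kilobase of exon, Klf7 was the most abundant member in every group. In control contralateral ganglia its level was 50.2 ± 2.47 CPM per kb, followed by Klf9 at 25.7 ± 1.65, Klf13 at 19.9 ± 0.839 and Klf6 at 18.9 ± 0.360 CPM per kb (SD, n = 5). The ranges of Klf13 and Klf6 overlapped, while those of Klf7, Klf9 and Klf13 did not. Klf5 followed at 8.65 ± 0.324, Klf2 at 6.49 ± 2.51 and Klf10 at 5.23 ± 0.455 CPM per kb; the ranges of Klf5 and Klf2, and of Klf2 and Klf10, overlapped, while that of Klf10 did not reach Klf15. Klf15 (3.53 ± 0.577), Klf4 (3.003 ± 0.979) and Klf11 (2.72 ± 0.179 CPM per kb) were the lowest and overlapped in turn. On the lesioned side Klf6 stood second, at 40.6 ± 1.54 CPM per kb in control and 40.9 ± 2.75 in cKO mice, with no overlap with Klf7 above or Klf9 below it in either genotype. Klf4 was seventh at 7.03 ± 3.45 CPM per kb in cKO contralateral ganglia, where its range overlapped its neighbours Klf2 and Klf10, and eighth on the lesioned side of both genotypes. The exon lengths are those of GENCODE M21 merged exons, and the release the authors used is not given in the sources used here.

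**Figure D1:**
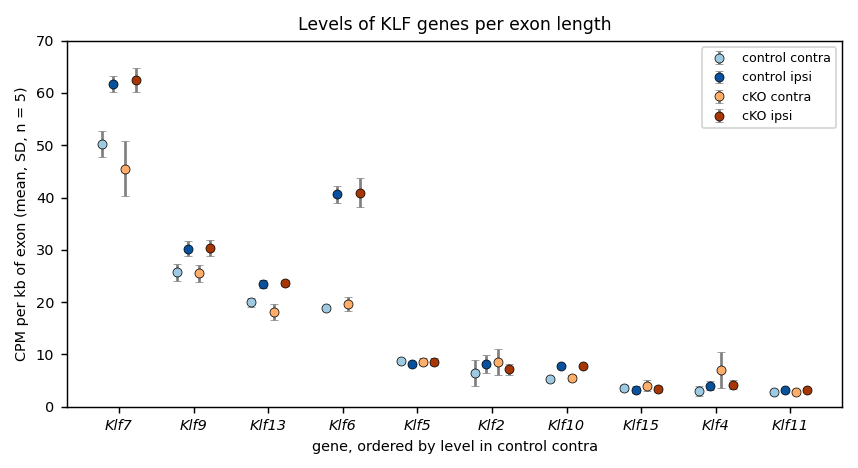
Level per exon length of the 10 KLF genes (x axis, ordered by the control contralateral level; y axis, TMM-normalised CPM per kb of exon; points, mean of 5 libraries; bars, SD). Klf7 is highest in all 4 groups, and Klf6 moves from 18.9 to 40.6 CPM per kb between the sides in control mice.

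The first comparison set the lesioned against the contralateral side within each genotype. Of the 10 members, 6 rose on the lesioned side (Klf6, Klf7, Klf9, Klf10, Klf11 and Klf13), in control and in cKO mice alike. None was called lower in the main fit, which does not pair the sides of a mouse. Klf6, a growth-promoting factor, rose about 2-fold in both genotypes, and the other 5 rose by 1.14- to 1.47-fold. Genes count as called with an adjusted p under 0.05 in edgeR's quasi-likelihood test with Benjamini-Hochberg adjustment over all tested genes. Of all genes, 29.9% were called in control mice (13.8% higher and 16.0% lower) and 31.3% in cKO mice (16.2% higher and 15.1% lower). The members' median log2 fold change was 0.27 in control and 0.24 in cKO mice, beside -0.0047 and -0.030 over all tested genes. All 6 were higher in 10 of 10 mice when each mouse's own sides were compared. With mouse as a replicate block, Klf15 was also called lower in cKO mice (-0.24), but not with mouse as a random effect, as described below.

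Markers of cell types moved between the sides as well. Of 6 satellite glia markers, all detected, 3 were called higher and none lower in each genotype. Their summed level was 1624 to 1795 CPM in control contralateral and 1848 to 2084 CPM in control ipsilateral ganglia, which did not overlap, and 1604 to 1965 against 1785 to 1983 CPM in cKO mice, which did. Of the 14 sensory neuron markers, 6 were called lower in control and 4 in cKO mice and none higher, while their sums overlapped between the sides in both genotypes. Of 8 endothelial markers, all detected, 3 were called higher in control and none in cKO mice, with sums of 105 to 148 against 124 to 179 CPM in control and 119 to 177 against 139 to 163 CPM in cKO mice. Their part in the rise of the 6 KLF genes was not tested.

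Klf6 is an early response gene that favours axon growth. Its level in contralateral ganglia was 80.4 (H97), 82.3 (H65), 83.2 (H62), 83.7 (H96) and 84.5 CPM (H63) in control mice, and 78.6 (H99), 81.2 (H64), 86.1 (H61), 91.9 (H95) and 92.1 CPM (H100) in cKO mice. Ipsilaterally it was 167 (H97), 178 (H96), 179 (H65), 181 (H63) and 185 CPM (H62) in control, and 167 (H100), 168 (H99), 179 (H61), 191 (H95) and 193 CPM (H64) in cKO mice. The highest contralateral library therefore lay far below the lowest ipsilateral one. The log2 fold change was 1.11 in control (SE 0.0470, adjusted p = 2.87e-13) and 1.06 in cKO mice (SE 0.0469, adjusted p = 3.54e-13). The largest Klf6 response of a single mouse was 1.25 on the log2 scale and the smallest 0.86, both in cKO mice, whereas the 5 control mice spanned 1.06 to 1.16.

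Klf7, the close relative of Klf6 that is needed for sensory neuron development, started from a higher level and rose less. Contralateral libraries held 388 (H62), 392 (H96), 407 (H63), 419 (H65) and 437 CPM (H97) of Klf7 in control mice, and 325 (H64), 344 (H95), 353 (H100), 399 (H61) and 431 CPM (H99) in cKO mice. Ipsilateral libraries held 485 (H96), 493 (H97), 508 (H65), 510.3 (H62) and 513 CPM (H63) in control, and 485 (H100), 498 (H99), 508 (H95), 513 (H61) and 534 CPM (H64) in cKO mice. The sides did not overlap in either genotype, and the cKO contralateral libraries were the most spread group. The log2 fold change was 0.30 in control (SE 0.0572, adjusted p = 3.91e-04) and 0.46 in cKO mice (SE 0.0572, adjusted p = 2.66e-06). In the GENCODE M21 annotation, the noncoding gene Gm26649 lies on the opposite strand over 3196 of the 8131 exon bases of Klf7. That gene has no row in the count table, and the strand setting of the counting is not given in the sources used here, so reads of Gm26649 within the Klf7 values cannot be told apart.

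**Figure D2:**
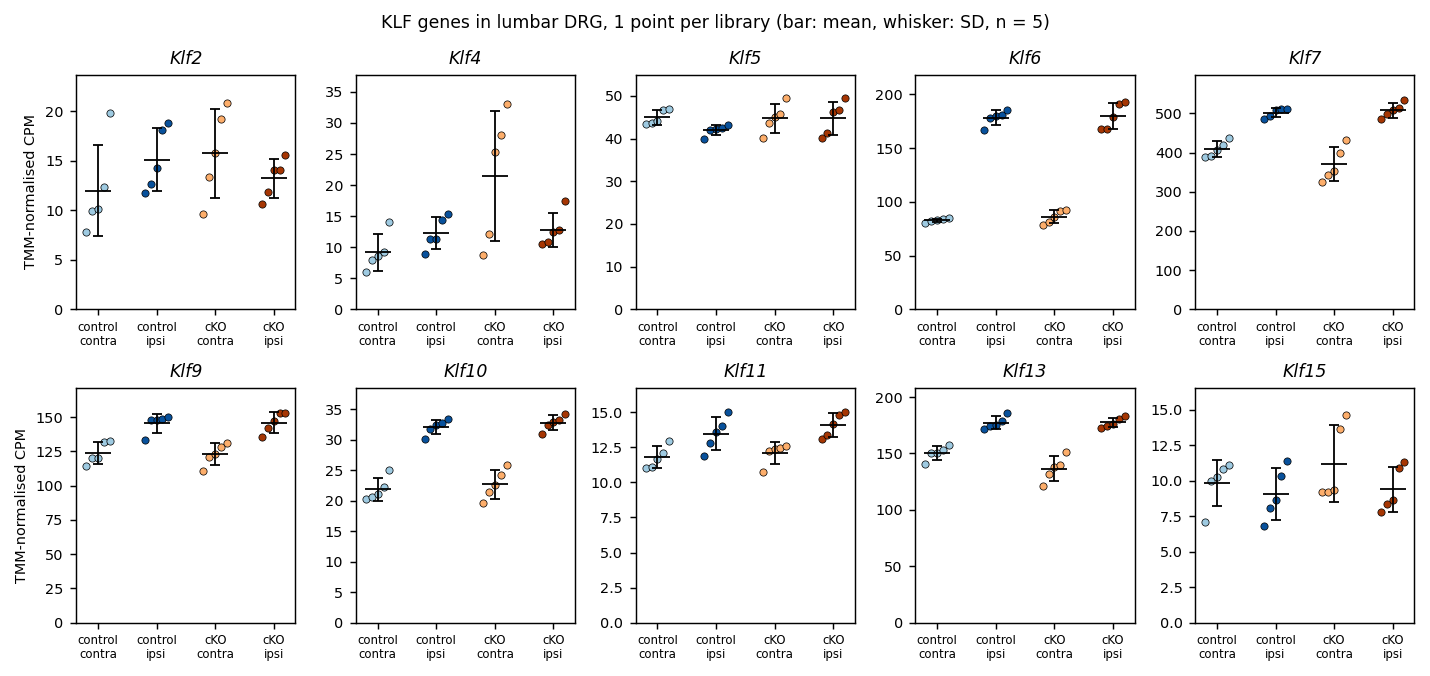
TMM-normalised CPM of each KLF gene (1 panel per gene, y axis from 0) in the 4 groups (x axis), 1 point per library, with the mean as a bar and the SD as a whisker (n = 5). Klf6, Klf7, Klf9, Klf10 and Klf13 do not overlap between the sides in either genotype, and Klf4 is widest in cKO contralateral ganglia, from 8.74 to 33.0 CPM.

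Klf9 and Klf13 are related factors that recruit the SIN3A corepressor; Klf9 is induced by thyroid hormone and glucocorticoids and is known to restrain axon growth. Klf9 stood at 115 (H96), 119.9 (H63), 120.2 (H62), 132 (H97) and 132 CPM (H65) in control contralateral and at 133 (H96), 148 (H65), 148 (H97), 149 (H63) and 150.0 CPM (H62) in control ipsilateral ganglia. In cKO mice it was 111 (H64), 121 (H99), 123 (H61), 128 (H100) and 131 CPM (H95) contralaterally and 135 (H99), 142 (H64), 147 (H61), 153 (H100) and 153 CPM (H95) ipsilaterally. The sides came close, at 132 against 133 CPM in control mice, but did not overlap. The log2 fold change of Klf9 was 0.23 in control (SE 0.0501, adjusted p = 0.00108) and 0.25 in cKO mice (SE 0.0501, adjusted p = 5.54e-04).

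Klf13 was at 140.3 (H96), 150.0 (H62), 150.1 (H63), 153 (H65) and 158 CPM (H97) in control contralateral and at 171 (H96), 174 (H65), 175 (H63), 179 (H97) and 186 CPM (H62) in control ipsilateral ganglia. In cKO mice it was at 121 (H64), 132 (H100), 138 (H95), 140.1 (H61) and 151 CPM (H99) contralaterally and at 173 (H99), 175 (H61), 176 (H100), 181 (H64) and 183 CPM (H95) ipsilaterally. The 5 cKO contralateral libraries again covered the widest range, and the sides were apart in both genotypes. The log2 fold change of Klf13 was 0.24 in control (SE 0.0440, adjusted p = 2.57e-04) and 0.38 in cKO mice (SE 0.0440, adjusted p = 9.09e-07).

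Klf10 and Klf11 are repressors first known as TGF-beta inducible early genes. Klf10 was at 20.3 (H62), 20.7 (H97), 21.02 (H63), 22.3 (H65) and 25.0 CPM (H96) in control contralateral and at 30.2 (H63), 31.8 (H65), 32.4 (H97), 32.8 (H62) and 33.4 CPM (H96) in control ipsilateral ganglia. In cKO mice Klf10 ranged from 19.6 to 25.8 CPM (median 22.6) contralaterally and from 31.0 to 34.3 CPM (median 33.0) ipsilaterally. Its sides were well apart. Its log2 fold change was 0.55 in control (SE 0.0629, adjusted p = 7.40e-07) and 0.53 in cKO mice (SE 0.0628, adjusted p = 1.28e-06), next to that of Klf6 among the 6 rises. Klf11 was the smallest of the 6 rises, with a log2 fold change of 0.19 in control (SE 0.0630, adjusted p = 0.0237) and 0.22 in cKO mice (SE 0.0630, adjusted p = 0.00971). Its control libraries overlapped, at 11.1 (H65), 11.1 (H62), 11.7 (H97), 12.1 (H96) and 12.9 CPM (H63) contralaterally against 11.9 (H62), 12.8 (H65), 13.6 (H97), 14.05 (H63) and 15.01 CPM (H96) ipsilaterally. In cKO mice they did not, at 10.7 to 12.6 CPM against 13.1 to 15.02 CPM. The Klf11 call in control mice was lost on leaving out H65 (adjusted p = 0.0529), H96 (adjusted p = 0.0822) or H97 (adjusted p = 0.0688).

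**Figure D3:**
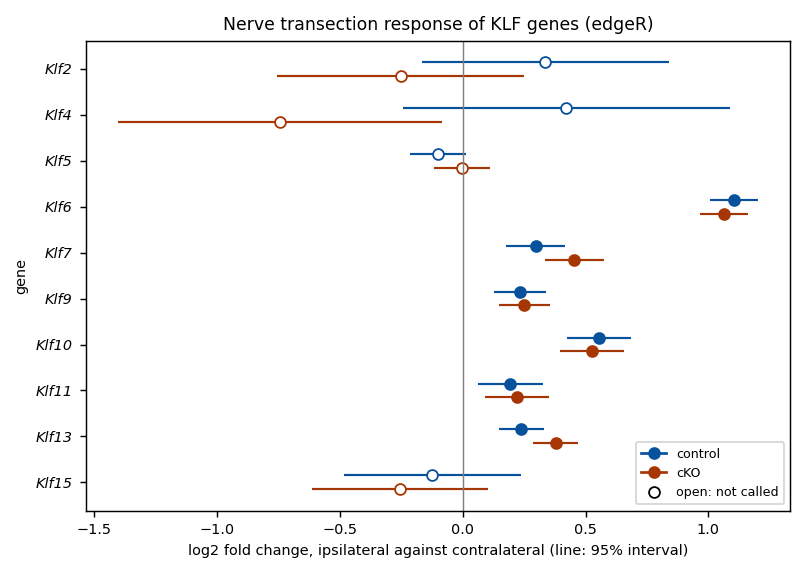
Log2 fold change of each KLF gene, ipsilateral against contralateral (x axis), in control (blue) and cKO mice (orange), from edgeR; lines are 95% intervals, filled points are called and open points are not. The 6 called genes lie right of 0 in both genotypes, and Klf4 has the widest intervals, such as -1.40 to -0.08 in cKO mice.

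The other 4 members, Klf2, Klf4, Klf5 and Klf15, were not called on the lesioned side in either genotype. Klf5 was at 43.5 (H96), 43.7 (H65), 44.1 (H63), 46.8 (H62) and 46.9 CPM (H97) in control contralateral and at 39.9 (H65), 42.1 (H96), 42.4 (H97), 42.4 (H63) and 43.2 CPM (H62) in control ipsilateral ganglia. The control sides of Klf5 did not overlap and it was lower in 5 of 5 mice, yet its log2 fold change of -0.10 (95% interval -0.21 to 0.01) had an adjusted p of 0.191. In cKO mice, where 1 of 5 mice was lower, it was -0.00 (95% interval -0.11 to 0.11, adjusted p = 0.991). Altogether 6 members did not overlap between the sides in control (Klf5, Klf6, Klf7, Klf9, Klf10 and Klf13), against 23.6% of all genes, and 6 in cKO mice (Klf6, Klf7, Klf9, Klf10, Klf11 and Klf13), against 20.2%.

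Klf15, a glucocorticoid-induced regulator of amino acid and lipid metabolism, was at 7.10 (H96), 9.98 (H63), 10.2 (H65), 10.8 (H97) and 11.1 CPM (H62) in control contralateral and at 6.79 (H96), 8.05 (H63), 8.63 (H65), 10.3 (H97) and 11.4 CPM (H62) in control ipsilateral ganglia. In cKO mice it was at 9.17 (H64), 9.17 (H61), 9.32 (H99), 13.6 (H100) and 14.6 CPM (H95) contralaterally and at 7.80 (H64), 8.34 (H99), 8.64 (H61), 10.9 (H95) and 11.3 CPM (H100) ipsilaterally. The sides overlapped in both genotypes, but mice that were high on one side were high on the other, and the ipsilateral library was the lower one in 9 of 10 mice. Without pairing, the log2 fold change was -0.12 in control (SE 0.172, adjusted p = 0.657) and -0.25 in cKO mice (SE 0.171, adjusted p = 0.287). With mouse as a replicate block, Klf15 was called lower in cKO mice (-0.24, adjusted p = 0.00793) and not in control mice (-0.13, adjusted p = 0.126). With mouse as a random effect in limma-voom, the other fit that takes the pairing into account, it was not called in cKO mice (-0.25, adjusted p = 0.222). With 3 cKO contralateral libraries of high fibroblast marker level left out (H64, H95 and H100, described next), and without pairing, its log2 fold change in cKO mice was 0.03 (adjusted p = 0.943); they include the 2 highest Klf15 values of their group, H95 and H100, so a move towards 0 was largely fixed by that choice.

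**Figure D4:**
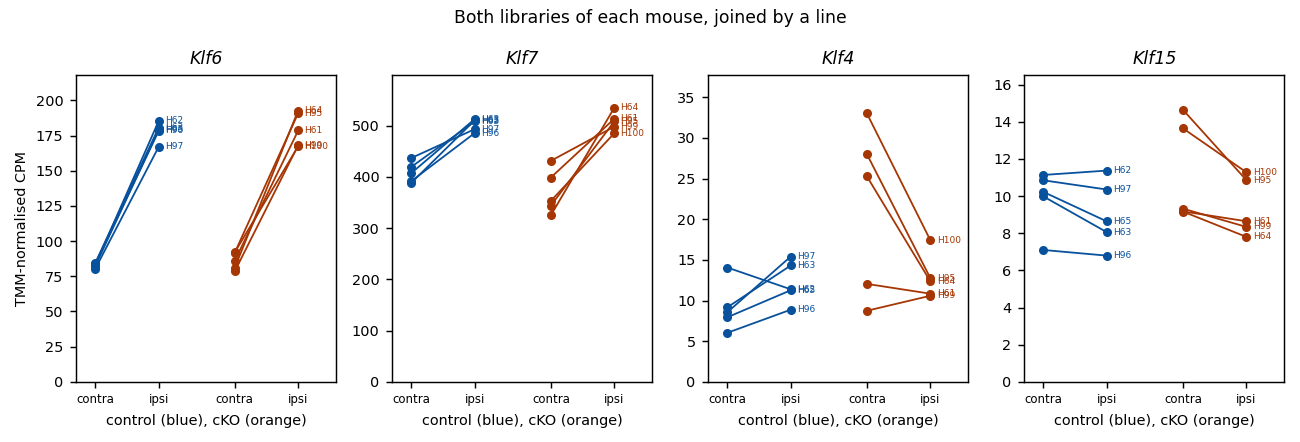
TMM-normalised CPM of Klf6, Klf7, Klf4 and Klf15 (y axis) in the contralateral and ipsilateral library of each mouse (x axis), joined by a line, for 5 control mice (blue) and 5 cKO mice (orange). Klf6 and Klf7 rise in 10 of 10 mice, Klf4 rises in 4 of 5 control and 1 of 5 cKO mice, and Klf15 is lower ipsilaterally in 9 of 10 mice.

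Klf4, a restrainer of axon growth that is also abundant in fibroblasts, endothelium and other barrier cells, had the widest spread of the 10 members, with an SD of 49.0% of its mean in cKO contralateral ganglia. Contralateral libraries held 6.03 (H96), 7.94 (H65), 8.56 (H97), 9.17 (H63) and 14.1 CPM (H62) in control and 8.74 (H99), 12.0 (H61), 25.3 (H64), 28.0 (H95) and 33.0 CPM (H100) in cKO mice. Ipsilateral libraries held 8.88 (H96), 11.3 (H65), 11.4 (H62), 14.3 (H63) and 15.4 CPM (H97) in control and 10.6 (H99), 10.8 (H61), 12.4 (H64), 12.8 (H95) and 17.4 CPM (H100) in cKO mice. Thus 3 cKO contralateral libraries lay above all 17 others, and the remaining 2 lay within the control range. The log2 fold change of Klf4 after the lesion was 0.42 in control (95% interval -0.24 to 1.09, adjusted p = 0.361) and -0.74 in cKO mice (95% interval -1.40 to -0.08, adjusted p = 0.0825). Without mouse H99, Klf4 was called lower after the lesion in cKO mice (-0.88, adjusted p = 0.0334).

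Klf2, the close relative of Klf4 best known as a flow-induced gene of endothelium, had its widest spread in control contralateral ganglia, with an SD of 38.7% of its mean, against 28.6% in cKO contralateral ganglia. Klf2 ranged from 7.78 to 19.8 CPM (median 10.2) in control contralateral and from 11.7 to 18.8 CPM (median 14.3) in control ipsilateral ganglia. In cKO mice it ranged from 9.61 to 20.9 CPM (median 15.7) contralaterally and from 10.6 to 15.6 CPM (median 14.02) ipsilaterally. All 4 ranges overlapped, and its log2 fold change was 0.34 in control (SE 0.238, adjusted p = 0.333) and -0.25 in cKO mice (SE 0.238, adjusted p = 0.469).

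The same 3 libraries had the highest fibroblast marker levels. The summed level of 7 fibroblast markers, all detected, was 937 (H99), 1010 (H61), 1689 (H100), 1985 (H95) and 2245 CPM (H64) in cKO contralateral ganglia, against 803 to 1359 CPM in control contralateral, 927 to 1520 in control ipsilateral and 850.1 to 1560.2 CPM in cKO ipsilateral ganglia. H64, H95 and H100 therefore exceeded every library of the other groups in both the fibroblast sum and Klf4. Among control contralateral libraries, H62 had the highest Klf4 (14.1 CPM), the highest Klf2 (19.8 CPM) and the highest fibroblast sum (1359 CPM). Its marker sums were also the highest of that group for endothelium (148 CPM), mural cells (377), erythroid cells (711), neutrophils (120), lymphocytes (9.03) and muscle (355 CPM). They were not the highest for macrophages, sensory neurons, satellite glia or Schwann cells. The summed level of 8 endothelial markers, also all detected, was 119 (H100), 128 (H61), 135 (H99), 169 (H95) and 177 CPM (H64) in cKO contralateral and 105 to 148 CPM in control contralateral ganglia. The summed level of 6 muscle markers was 1587 CPM in the contralateral library of H100 and 2.05 to 596 CPM in the other 19. Sensory neuron markers summed to 10942 (H95), 11418 (H64) and 11664 CPM (H100) there, within the 10607 to 12682 CPM of the other 17 libraries. Erythroid markers summed to 272 (H99), 562 (H61), 580 (H95), 621 (H100) and 833 CPM (H64) in cKO contralateral ganglia, and to 311 to 711 CPM in control contralateral ganglia. The contralateral library of H64 also had the highest macrophage (246 CPM) and neutrophil sums (169 CPM) of the 20 libraries. Those of H95 (177 and 117 CPM) and H100 (168 and 71.6 CPM) lay within the values of the other libraries. The part of these cell types in the KLF values was not tested. With the 3 libraries left out, the log2 fold change after the lesion in cKO mice was 0.31 for Klf4 (adjusted p = 0.512) and 0.21 for Klf2 (adjusted p = 0.683), opposite in sign to the values with all libraries; the 3 libraries hold the highest values of both genes in their group, which fixes the direction of that move. The same 6 members were called higher in cKO mice without these libraries, with Klf6 at 1.13 and Klf7 at 0.30. That fit kept 2 cKO contralateral libraries, H61 and H99. The 3 left out hold the lowest Klf7 values of their group, which fixes the direction of its move from 0.46.

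**Figure D5:**
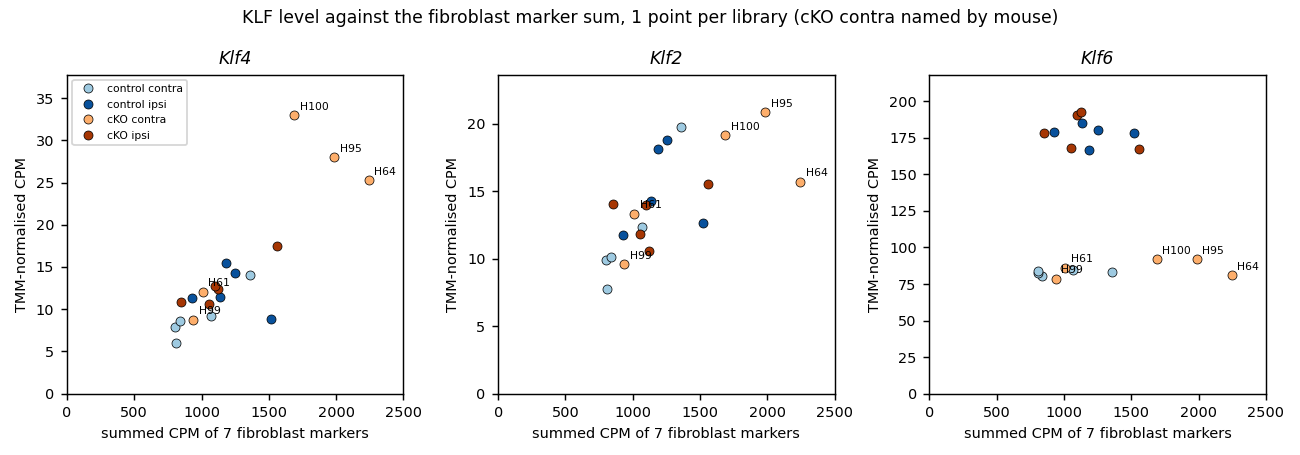
Level of Klf4, Klf2 and Klf6 (y axis, TMM-normalised CPM) against the summed CPM of 7 fibroblast markers (x axis) in each of the 20 libraries, coloured by group, with cKO contralateral libraries named by mouse. H64, H95 and H100 are the 3 libraries of highest Klf4 and highest fibroblast sum, while their Klf6 levels are 81.2 to 92.1 CPM beside 78.6 to 86.1 CPM in the other contralateral libraries.

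The second comparison set cKO against control on the same side, and no member was called on either. Contralaterally 0.0735% of all genes were called, and 3 of the 10 members had an unadjusted p under 0.05, against 17.5% of all genes. Klf4, cKO against control, was at 1.23 on the log2 scale (95% interval 0.56 to 1.90, adjusted p = 0.103), though its ranges overlapped. Klf7 was at -0.14 (95% interval -0.26 to -0.02, adjusted p = 0.207) and Klf13 at -0.14 (95% interval -0.23 to -0.05, adjusted p = 0.133). The other 7 members lay between -0.01 and 0.39, and their ranges overlapped too; 0 of 10 members and 1.52% of all genes had ranges that did not overlap.

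The calls of these 3 members changed when 1 mouse was left out. Without mouse H99, whose contralateral library had the lowest Klf4 and the highest Klf7 and Klf13 of its group, all 3 were called: Klf4 at 1.43 (adjusted p = 0.00730), Klf7 at -0.20 (adjusted p = 0.0147) and Klf13 at -0.18 (adjusted p = 0.0101). That fit called 3332 of all 28564 genes, against 21 with every mouse. With the contralateral libraries of H64, H95 and H100 left out instead, the values were 0.19 for Klf4, 0.02 for Klf7 and -0.04 for Klf13, none of them called, with 2 libraries left in that group. These libraries hold the 3 highest values of Klf4 and the 3 lowest of Klf7 and Klf13 in their group, so leaving them out had to bring all 3 values towards control. DESeq2 called Klf4 alone among the members (1.24, adjusted p = 0.00918), and 1041 of all genes.

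Ipsilaterally the members were close between genotypes. Their log2 fold changes, cKO against control, ran from -0.19 for Klf2 to 0.09 for Klf5, and none had an unadjusted p under 0.05, against 2.36% of all genes; 0.00700% of all genes were called. For Klf6 the difference was 0.01 (95% interval -0.08 to 0.11), for Klf7 0.02 (95% interval -0.10 to 0.14) and for Klf9 0.01 (95% interval -0.10 to 0.11), so the intervals of these 3 lay within 0.14 of 0 either way. Klf4 had the widest interval of the 10, from -0.60 to 0.72. No member had ranges that did not overlap, against 0.599% of all genes.

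The third comparison was the interaction, the injury response in cKO minus that in control mice. It called no member and 0.00% of all genes, and 2 members had an unadjusted p under 0.05, against 9.80% of all genes. Klf4 was at -1.17 (95% interval -2.10 to -0.23, adjusted p = 0.485) and Klf13 at 0.14 (95% interval 0.01 to 0.27, adjusted p = 0.498). With the contralateral libraries of H64, H95 and H100 left out, they were at -0.13 and 0.04, a move that the place of these libraries at the ends of their group fixes in direction. For Klf6, the strongest responder, the interaction was -0.04 (95% interval -0.18 to 0.09), and the others lay between -0.59 for Klf2 and 0.16 for Klf7. DESeq2 called 0 members in the interaction and 0 between genotypes ipsilaterally.

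Genes that act with the KLFs were described from 5 lists, by counts alone, with the shares of all genes given above as background. Of 16 other Klf and Sp family genes, which bind the same GC-rich sequences, 12 were tested; 3 were higher and 1 lower after the lesion in control mice, and 3 higher and none lower in cKO mice. Only Sp2 of the 12 was called in both, at 0.18 in control (adjusted p = 0.0121) and 0.16 in cKO mice (adjusted p = 0.0213). Sp3, the most abundant of them in CPM at group means of 42.9 to 44.5 CPM, was not called in either. The list's median log2 fold change was 0.16 in control and 0.03 in cKO mice.

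Of 15 corepressors, coactivators and ubiquitin ligases of KLF proteins, 2 were higher and 2 lower in each genotype, and 3 were called in both. Sap30, a subunit of the SIN3 corepressor, was higher by 0.55 in control (adjusted p = 3.60e-04) and 0.40 in cKO mice (adjusted p = 0.00551). Fbxw7 and Wwp1, ubiquitin ligases that mark KLF proteins for degradation, were lower, Fbxw7 at -0.27 and -0.12 (adjusted p = 2.99e-05 and 0.0264) and Wwp1 at -0.10 and -0.14 (adjusted p = 0.0108 and 3.78e-04). The median of the 15 was near 0 in both genotypes, at -0.00072 in control and 0.017 in cKO mice.

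Of 17 upstream inputs to Klf genes (MEF2 and ERK5, hormone receptors and TGF-beta signalling), 5 were higher and 7 lower in control and 3 higher and 6 lower in cKO mice. The 4 with the largest changes among those called in both were Mef2c, Nr3c2, Thrb and Smad4. Mef2c, a transcription factor through which ERK5 signalling acts on Klf2 and Klf4, was at -0.58 in control (adjusted p = 1.97e-06) and -0.60 in cKO mice (adjusted p = 9.21e-07). The mineralocorticoid receptor gene Nr3c2 was at -0.46 (adjusted p = 2.66e-06) and -0.59 (adjusted p = 7.49e-08), and the thyroid hormone receptor gene Thrb at -0.33 (adjusted p = 0.00106) and -0.28 (adjusted p = 0.00328). Smad4, which carries TGF-beta signals to the nucleus, was at 0.20 (adjusted p = 1.93e-04) and 0.28 (adjusted p = 2.80e-06).

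Klf9, Klf13 and Klf15 are known as glucocorticoid-induced, and of 14 other glucocorticoid-induced genes 5 were higher and 1 lower in each genotype. The leading ones were Cdkn1a, a cell cycle inhibitor, at 1.35 in control (adjusted p = 1.07e-12) and 1.42 in cKO mice (adjusted p = 4.28e-13), and Dusp1, a MAP kinase phosphatase, at 1.09 (adjusted p = 1.55e-08) and 1.01 (adjusted p = 3.68e-08). The metallothionein gene Mt2 was at 0.98 (adjusted p = 2.64e-04) and 0.69 (adjusted p = 0.00492) and the clock gene Per1 at 0.75 (adjusted p = 0.00135) and 0.72 (adjusted p = 0.00182). The gene called lower was Tsc22d3, which encodes the glucocorticoid-induced leucine zipper protein and is named after its values were seen, at -0.26 in control (adjusted p = 0.00733) and -0.28 in cKO mice (adjusted p = 0.00421). The other 8 were not called in either genotype. The list's median was 0.02 in control and -0.10 in cKO mice.

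Of 15 known KLF targets and partners in neurons, 7 were higher and 1 lower in control and 9 higher and 1 lower in cKO mice, with a median log2 fold change of 0.16 and 0.23. Sprr1a, a regeneration-associated gene, was at 5.32 in control (adjusted p = 1.42e-09) and 5.35 in cKO mice (adjusted p = 1.11e-09). Plaur, the urokinase receptor gene, was at 2.64 (adjusted p = 4.25e-13) and 3.02 (adjusted p = 7.71e-14). Socs3, a brake on STAT3 signalling, was at 1.66 (adjusted p = 4.06e-07) and 1.85 (adjusted p = 9.26e-08), and Cdkn1a, also in the previous list, completes the 4 largest. No gene of any of the 5 lists was called between genotypes on either side or in the interaction, in edgeR with the same adjustment. Of all genes, 0.0735% were called contralaterally, 0.00700% ipsilaterally and 0.00% in the interaction. Of the 72 genes tested in these lists, 21 had an unadjusted p under 0.05 contralaterally, 0 ipsilaterally and 12 in the interaction. The shares of all genes under that limit were 17.5%, 2.36% and 9.80%.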

How the data were processed

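RNA from the ganglia was made into stranded mRNA libraries and read as paired 150 bp reads, per the labels' protocols. HISAT2 and Picard, without versions, and the builds mm10 and mm39, without their roles, are named in the submitters' processing notes; the counter, annotation and strand setting are not given in the sources used here. The count table deposited by the authors gives exonic counts as whole numbers, not normalized. The FPKM table deposited by the authors equals the CPM divided by 1 length per gene, within 5% of the whole gene span for 93.0% of matched genes, so it was used within genes only.

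Symbols came from GENCODE M21 by Ensembl identifier (51487 of 78258 identifiers, 98.1% of counts). The tests were run with edgeR 4.0.16 under R 4.3.3, with TMM scaling, filterByExpr (minimum count 10, total 15), and the robust quasi-likelihood test in 1 fit of the 4 groups. SEs are the log2 fold change over the square root of F. Benjamini-Hochberg adjustment ran over 28564 genes, and levels are TMM-normalised CPM. All members were named for injury, in the genotype and interaction comparisons those with an unadjusted p under 0.05, and of each list up to 4 genes called in both injury comparisons with the largest mean change, or, for the Klf and Sp genes, up to 3 and the most abundant. The members and lists were chosen with earlier results of these data known.

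Each mouse gave both sides, so the mouse number pairs the libraries; the correlation of a mouse's deviations from its group means had a median of 0.186 (-0.0546 to 0.361) and exceeded 0.1 in 7 of 10 mice. Replicate pairs differed by more than counting, the chi-square over its degrees of freedom being 5.33 to 58.9 in the 40 pairs. Alternatives were RLE scaling, the unfiltered table, genes with a mean CPM of 1 or more, the replicate block, a covariate for the range of mouse numbers, a fit restricted to the libraries compared, DESeq2 1.42.0, limma-voom (a random effect per mouse) and limma 3.58.1 on log2 FPKM with pseudocounts of 1 and 0.1, and each mouse left out; 3 libraries of high fibroblast sum were left out as a choice made after seeing the data.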

Additional observations from a re-analysis of the deposited data

Results flagged for a closer look

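Within groups of 5 libraries, 3 member values lay far from the other 4, by the gap to the nearest library divided by the group's range (critical value 0.71). Klf9 was low in H96 of the control ipsilateral group, with a ratio of 0.857. Klf11 was low in H99 of the cKO contralateral group, with a ratio of 0.809. Klf15 was low in H96 of the control contralateral group, with a ratio of 0.714. The search covered 60 sets of 5 values, the library levels of the 10 members in 4 groups and the mouse responses of the 10 members in both genotypes, in which chance gives about 3 such cases; all 3 found were library levels.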

How the results depend on the processing

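Of the members' injury calls, those of Klf6, Klf7, Klf9, Klf10 and Klf13 in both genotypes and of Klf11 in cKO mice held under every alternative run. Klf11 in control mice was lost on log2 FPKM with a pseudocount of 1 (0.09, adjusted p = 0.0622) or 0.1 (0.16, adjusted p = 0.0634), and ranged from 0.17 to 0.22 with 1 mouse left out. With the replicate block, Klf15 was called in cKO mice (-0.24), 8559 genes were called in control and 9015 in cKO mice, and no other member's call changed. Leaving out 1 mouse gave 5 to 6 members called in control mice and 6 to 7 in cKO mice. Klf5 in cKO mice, near 0, changed sign with RLE scaling (0.0029), the unfiltered table (0.016), a mean CPM of at least 1 (0.00054), only the libraries compared (0.0083) and DESeq2 (0.0030), and ran from -0.023 to 0.043 with 1 mouse left out. With the 3 contralateral cKO libraries left out, values of the other sign were 0.21 for Klf2, 0.31 for Klf4, 0.076 for Klf5 and 0.028 for Klf15 after the lesion in cKO mice, and 0.023 for Klf7 between genotypes. No scaling moved the median of all genes by over 0.1.

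Between genotypes contralaterally, DESeq2 called 1 member, and leaving out 1 mouse gave 0 to 3, with 3 only without H99. Klf4 there ran from 1.02 to 1.44, Klf7 from -0.20 to -0.10 and Klf13 from -0.18 to -0.10, and Klf4 after the lesion in cKO mice from -0.88 to -0.63. The count of all genes called there, 21, became 50 unfiltered, 45 with a mean CPM of at least 1, 2 with only the libraries compared, 1041 with DESeq2, 6 and 7 on log2 FPKM (pseudocounts 1 and 0.1) and 2 without the 3 libraries, and ran from 5 without H95 to 3332 without H99. It was 178 without H61, 12 without H64, 6 without H63, H97 or H100, 8 without H96 and 10 without H65. The interaction, with 0 genes called by edgeR and 2799 at an unadjusted p under 0.05, gave 11 with DESeq2 and 0 to 43 with 1 mouse left out, 43 without H99; its fit of only the libraries compared is the fit of all 20. Over all alternatives the adjusted p ran from 0.00594 to 0.0822 for Klf11 after the lesion in control mice and, between genotypes contralaterally, from 0.00730 to 1 for Klf4, 0.0147 to 1 for Klf7 and 0.0101 to 1 for Klf13. The causes were not tested.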

Other observations

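Klf12, a family member outside the 10 that was singled out after its values were seen, was close to the threshold between genotypes but not called. It stood at 10.4 ± 0.719 CPM (SD, n = 5) in control contralateral and 13.9 ± 1.47 CPM in cKO contralateral ganglia, and at 13.6 ± 1.61 and 13.3 ± 0.793 CPM on the lesioned side. The contralateral log2 fold change, cKO against control, was 0.41 in edgeR's quasi-likelihood test (SE 0.0796, adjusted p = 0.0503). Klf12 rose after the lesion in control mice (0.38, adjusted p = 9.15e-04) and was at -0.06 in cKO mice (adjusted p = 0.600), and the interaction was -0.44 (adjusted p = 0.485).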
